A study of Mus musculus with 12 samples.

Results

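The 10 genes described here encode the basement membrane collagens and nidogens: the type IV collagen chains *Col4a1* to *Col4a6*, the multiplexins *Col15a1* and *Col18a1*, and the linkers *Nid1* and *Nid2*. They were chosen by gene name from the 32288 genes and transgenes counted by bulk RNA-seq. Type IV collagen chains combine into trimers that join end to end into the sheet-like network of basement membranes. Nidogens bridge this network to laminin, and the multiplexins carry chondroitin or heparan sulfate chains and sit where basement membranes meet the interstitial matrix. Basement membranes are known for lining vessels and surrounding muscle, fat and Schwann cells, and nidogens and type IV collagen also occur in the matrix around chondrocytes.

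The study asked how metaphyseal osteoblasts of juvenile and adult mice differ, and what *c-Myc* with and without mutant p53 does to them. All 4 groups carried *Osx-CreERT2*, expressed from the *Osx* locus, and the *mTmG* reporter, and all received tamoxifen, after which CD31-, CD45- and TER119- cells with membrane GFP were sorted from femurs and tibias. The juvenile group (3 weeks of age, 4 libraries) and the adult group (8 weeks, 4 libraries) carried no further allele, and each library came from 2 pooled males. *c-Myc* osteoblasts (2 libraries) also carried *LSL-tTA* and *Col1a1::TetO–c-Myc*, a transgene switched on by tTA, and *c-Myc* + *R172H* osteoblasts (2 libraries) carried *Trp53-LSL-R172H* in addition. The mice of both induced groups were given tamoxifen at 3 weeks and collected 7 days after it (the labels call them 5 weeks old at dissection), with the bone cut about 5 mm from the growth plate rather than about 2 mm, and the labels give both sexes. Age, dissection, tamoxifen schedule and sex therefore cannot be told apart from *c-Myc* in comparisons of the induced with the juvenile group.

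Total counts were between 9066154 and 15684412 per library, and *Col1a1*, *Col1a2* and *Gm26917* together took from 57.1 to 65.3% of them in the juvenile, from 42.4 to 56.1% in the adult, from 41.8 to 46.1% in the *c-Myc* and from 35.2 to 37.6% in the *c-Myc* + *R172H* group. *Myc* was at 39.8 to 52.2 CPM, counts scaled to library size, in the control libraries and at 624 to 747 CPM in the induced ones, and *Sp7*, which encodes OSX, was at 119 to 245 CPM across all 12. The sum of 15 endothelial markers stayed between 0 and 10.1 CPM in every library, from 2.36 to 4.31 CPM in the juvenile and from 7.76 to 10.1 CPM in the *c-Myc* group, and 9 of the 15, *Pecam1* and *Cdh5* among them, had no count in the juvenile libraries. The sum of 12 chondrocyte markers, led by *Col2a1*, was far from 0 and differed between groups: 9025 to 26966 CPM in the juvenile, 35412 to 129895 CPM in the adult, 354 to 571 CPM in the *c-Myc* and 166 to 173 CPM in the *c-Myc* + *R172H* group. In these bulk samples, fewer cells of a type and less RNA per cell cannot be told apart.

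*Col4a1* and *Col4a2* are transcribed away from each other, and their annotated first exons overlap. *Col4a1* lies at chr8:11198423-11312826 on the minus strand and *Col4a2* at chr8:11312805-11449287 on the plus strand (GRCm38, GENCODE annotation). The 22 bases that belong to both first exons, chr8:11312805-11312826, are shown because they place the pair's start sites side by side. They are taken from the RefSeq promoter table of GRCm38.p6, read 5′ to 3′ on each gene's strand, and the capitals mark a GC box, GGGCGG or its reverse complement.
Col4a1: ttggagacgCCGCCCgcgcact
Col4a2: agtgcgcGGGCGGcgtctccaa
The windows from 250 bases before to 50 bases after each start site shared 78 bases in this pair, of which 73.1% were G or C. *Col4a5*, at X:141475385-141689234 on the plus strand, and *Col4a6*, at X:141165403-141474076 on the minus strand, also point away from each other, but their RefSeq start sites are 1343 bases apart and their windows do not meet. The bases of those windows that lie before the annotated genes are shown for contrast, with CCAAT (or ATTGG) and GC boxes in capitals, for *Col4a5* from X:141475169-141475384 (plus strand) and for *Col4a6* from X:141474077-141474326 (minus strand).
Col4a5: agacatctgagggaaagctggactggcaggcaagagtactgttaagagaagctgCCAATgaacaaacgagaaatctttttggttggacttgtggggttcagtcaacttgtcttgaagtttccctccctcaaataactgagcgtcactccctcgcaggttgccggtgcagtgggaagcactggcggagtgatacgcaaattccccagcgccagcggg
Col4a6: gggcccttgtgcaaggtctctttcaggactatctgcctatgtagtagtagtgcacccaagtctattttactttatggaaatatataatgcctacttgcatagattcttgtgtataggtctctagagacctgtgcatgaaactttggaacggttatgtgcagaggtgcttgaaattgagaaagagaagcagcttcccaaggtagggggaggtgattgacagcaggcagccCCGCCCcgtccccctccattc

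Promoter windows were found for 8 of the 10 members, 9 windows in all, and 4 motifs were searched on both strands. The GC box was in 35.7% and CCAAT in 37.4% of the 32851 RefSeq windows of the same length, TATAAA in 13.6% and the E box CACGTG, which *c-Myc* is known to bind, in 7.15%. Among the members, the *Col4a1*, *Nid1* and *Col4a5* windows each held 1 GC box and 1 CCAAT box, the *Col4a2* window 3 and 1, the *Col4a6* window 1 GC box, 1 of the 2 *Col18a1* windows 3 and 1, and the *Col15a1* and *Col4a4* windows neither. TATAAA and CACGTG did not occur in the 9 windows.

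Per kilobase of exon, *Col4a1*, *Nid2* and *Col4a2* had the highest mean levels of the members in juvenile osteoblasts. *Col4a1* was at 22.8 ± 1.39 CPM per kb (SD, n = 4), *Nid2* at 17.6 ± 7.04, *Col4a2* at 17.1 ± 3.23 and *Col15a1* at 13.2 ± 5.40, and the spread of *Nid2* reached the means of the other 3. The order of *Col4a2* and *Col15a1* was not the same in every library: in juvenile library 3 *Col15a1* was at 20.4 and *Col4a2* at 13.1 CPM per kb. *Nid1* followed at 2.94 ± 0.862 CPM per kb, then *Col18a1* at 1.09 ± 0.348 and *Col4a5* at 0.577 ± 0.245. In adult osteoblasts *Nid2* had the highest mean, 66.9 ± 38.3 CPM per kb (SD, n = 4), with *Col15a1* at 39.1 ± 5.43 within its spread, and *Col4a1* was at 24.9 ± 1.22. In *c-Myc* + *R172H* osteoblasts *Nid2* was at 3.98 ± 0.501 CPM per kb (SD, n = 2), above *Col4a1* at 2.52 ± 0.717 and *Col4a2* at 1.82 ± 0.450, while *Col15a1* was at 0.280 ± 0.101. The plot of expression in each library shows these shifts for the 8 members with counts in most groups.

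**Figure D1:**
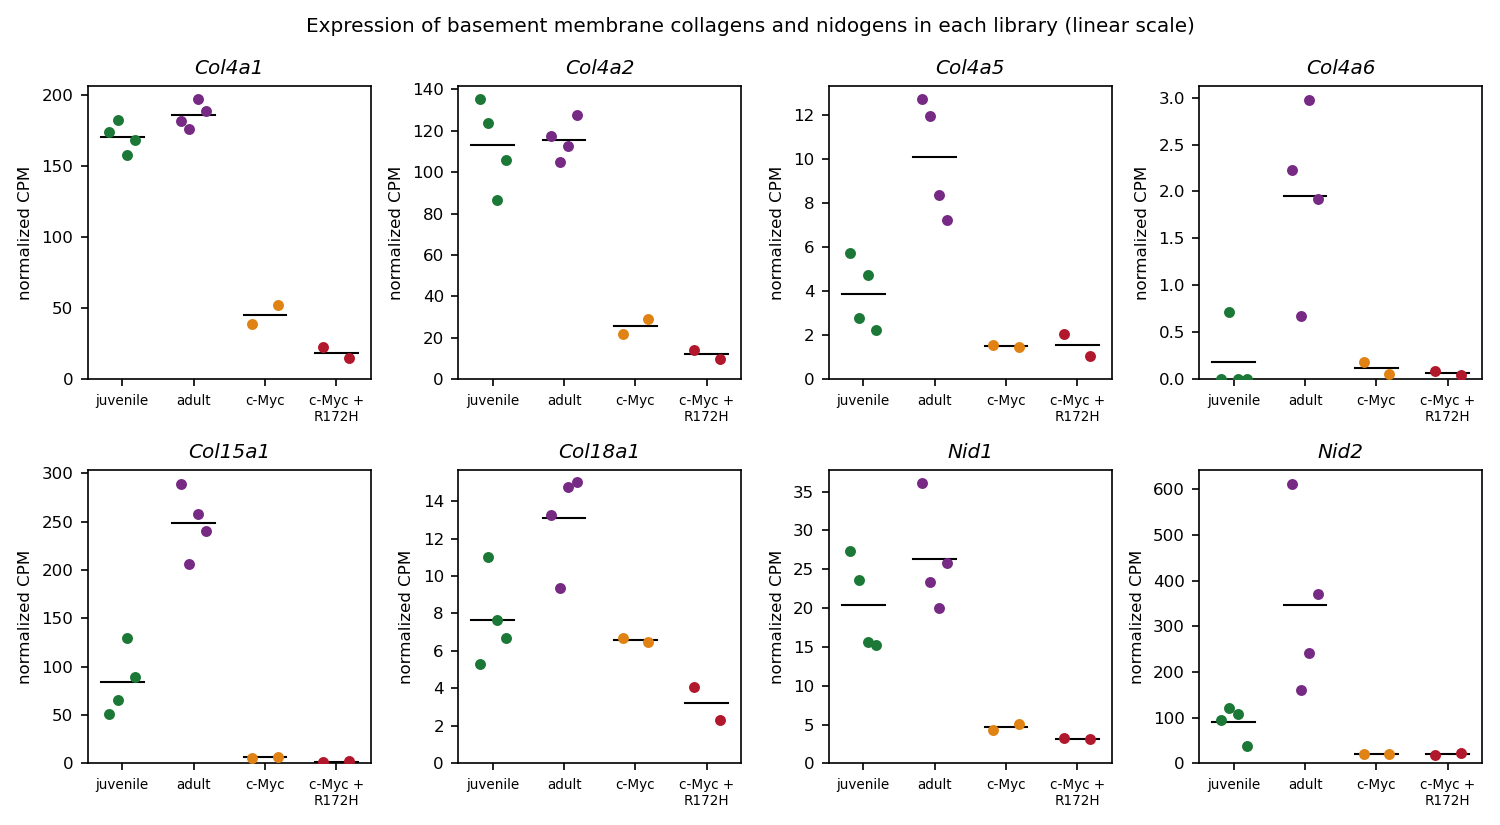
Normalized expression (CPM, linear axis from 0) of 8 members in each library of the 4 groups, with points for libraries and bars for group means. The juvenile and adult libraries overlap for *Col4a1* and *Col4a2*, the adult libraries of *Nid2* spread from 160 to 613 CPM, and the 4 induced libraries of *Col15a1* sit between 1.33 and 6.86 CPM.

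The chains *Col4a3* and *Col4a4*, which with *Col4a5* form the network of the kidney glomerulus, were at or near 0. *Col4a3* had no count in any of the 12 libraries, which at 3 counts allows up to 0.137 to 0.417 CPM depending on the library. *Col4a4* had 5 and 4 counts in adult libraries 1 and 3, 3 counts in *c-Myc* + *R172H* library 2, and none elsewhere. *Col4a6*, the partner of *Col4a5* in the smooth muscle network, had 22, 6, 23 and 18 counts in the adult libraries, 7 counts in juvenile library 2 and none in the other juvenile libraries, and from 1 to 4 counts in the induced ones. These 3 genes did not pass the filter on low counts, which left 7 of the 10 members tested in each comparison.

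Between juvenile and adult osteoblasts, *Col15a1* and *Col4a5* were lower in juvenile cells, and *Col4a1* and *Col4a2* did not pass the test. 2 of the 7 tested members were called lower and 0 higher at an adjusted p below 0.05, with 5 not passing, where edgeR's quasi-likelihood test called 5.12% of the 11345 tested genes, 3.23% lower and 1.89% higher. The median log2 fold change, juvenile over adult, was -0.78 over the 7 members and 0.00093 over all genes tested. The groups did not overlap, with juvenile lower, for 3 of the 7 members, *Col15a1*, *Col4a5* and *Nid2*, against 6.75% of all genes tested.

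*Col4a1*, the more abundant chain of the ubiquitous network, was at 174, 182, 158 and 168 CPM in juvenile libraries 1 to 4 and at 182, 176, 197 and 189 CPM in adult ones. *Col4a2*, the other chain of that network, was at 135, 124, 86.5 and 106 CPM in juvenile and at 118, 105, 113 and 127 CPM in adult libraries. The ranges of the groups overlapped for both genes. The log2 fold change of *Col4a1* was -0.13 (approximate 95% interval -0.34 to 0.077) and that of *Col4a2* was -0.042 (-0.31 to 0.22), with adjusted p of 0.555 and 0.914 in edgeR's quasi-likelihood test.

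*Col15a1*, a multiplexin, was at 51.1, 65.4, 130 and 88.8 CPM in juvenile libraries 1 to 4 and at 289, 206, 257 and 240 CPM in adult ones. The highest juvenile library lay below the lowest adult library. Expression was 2.99-fold lower in juvenile cells (log2 fold change -1.58, SE 0.25, adjusted p = 0.0075 in edgeR's quasi-likelihood test), and the call held with each library left out in turn. *Col18a1*, the other multiplexin and the source of endostatin, was at 5.29, 11.04, 7.65 and 6.70 CPM in juvenile and at 13.3, 9.36, 14.7 and 15.0 CPM in adult libraries. Juvenile library 2 lay above adult library 2, and the log2 fold change of -0.78 (SE 0.27) gave an adjusted p of 0.0997 in edgeR's quasi-likelihood test.

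*Col4a5* was at 5.75, 2.78, 4.73 and 2.23 CPM in juvenile libraries 1 to 4 and at 12.8, 11.96, 8.41 and 7.25 CPM in adult ones. The groups did not overlap, and expression was 2.61-fold lower in juvenile cells (log2 fold change -1.38, SE 0.34, adjusted p = 0.0271 in edgeR's quasi-likelihood test). This call was lost without juvenile library 2, juvenile library 4 or adult library 1, with adjusted p of 0.0864, 0.0712 and 0.0905, and adjusted p over all alternatives ran from 0.0033 to 0.602. *Col4a6* had a log2 fold change of -3.29 (SE 1.14) with an adjusted p of 0.0615 in edgeR's quasi-likelihood test without the filter on low counts, on 7 counts in juvenile against 69 in adult libraries.

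*Nid1* was at 27.3, 23.6, 15.6 and 15.3 CPM in juvenile libraries 1 to 4 and at 36.1, 23.4, 20.0 and 25.8 CPM in adult ones. The ranges overlapped, with a log2 fold change of -0.37 (SE 0.22) and an adjusted p of 0.396 in edgeR's quasi-likelihood test. *Nid2* was at 94.7, 121, 109 and 38.7 CPM in juvenile and at 613, 160, 241 and 371 CPM in adult libraries. Juvenile library 4 stood below the other juvenile libraries and adult library 1 above the other adult ones, and the groups did not overlap. The fold was large, 3.84-fold lower in juvenile cells (log2 fold change -1.94, SE 0.53), but with this spread the adjusted p was 0.0954 in edgeR's quasi-likelihood test, against 0.0041 in DESeq2. *Nid2* shares 437 exonic bases with *Rtraf* on the opposite strand, and the log2 fold change of *Rtraf* was -0.12 (SE 0.18).

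The order of *Nid2* over the 8 juvenile and adult libraries was the order of the summed chondrocyte markers. In juvenile libraries 4, 1, 3 and 2 the markers summed to 9025, 21756, 25544 and 26966 CPM and *Nid2* was at 38.7, 94.7, 109 and 121 CPM. In adult libraries 2, 3, 4 and 1 the markers summed to 35412, 57021, 77527 and 129895 CPM and *Nid2* was at 160, 241, 371 and 613 CPM. *Col15a1* did not share this order within the juvenile group, where its highest level, 130 CPM, was in library 3 and its lowest, 51.1 CPM, in library 1. Within the adult group its highest level, 289 CPM, was in library 1 and its lowest, 206 CPM, in library 2, as for the markers. Adult libraries 3 and 4, at 257 and 240 CPM, were in the other order. With the chondrocyte marker score as a covariate, a setting added after seeing the data, the log2 fold change was -0.011 for *Nid2*, -1.03 for *Col4a5* and -1.37 for *Col15a1*, and 0 of the 7 members were called (adjusted p of 0.990, 0.602 and 0.338 in edgeR's quasi-likelihood test). That fit called 12 genes higher and 37 lower in all. The highest juvenile marker sum lay below the lowest adult one, so chondrocyte RNA and age cannot be told apart between the groups as wholes.

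The summed markers of several other cell types did not overlap between the ages. The sum of 10 mural cell markers was 428 to 520 CPM in the juvenile and 579 to 969 CPM in the adult libraries, and that of 8 Schwann cell markers 12.7 to 16.1 CPM and 23.9 to 56.8 CPM. The sum of 10 marrow stromal and adipocyte markers was 337 to 430 CPM in the juvenile and 440 to 674 CPM in the adult libraries, with 0 of 7 tested called. Of 12 osteoblast markers, 4 were called higher and 0 lower in juvenile cells, with a median of 0.57 on the log2 scale. Of the chondrocyte markers, 1 of 12 was called lower in juvenile cells, with a median log2 fold change of -1.91, and of the mural markers 2 of 7 tested. Beyond the chondrocyte covariate fit above, the part of these cells in the differences of *Col15a1* and *Col4a5* was not tested.

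**Figure D2:**
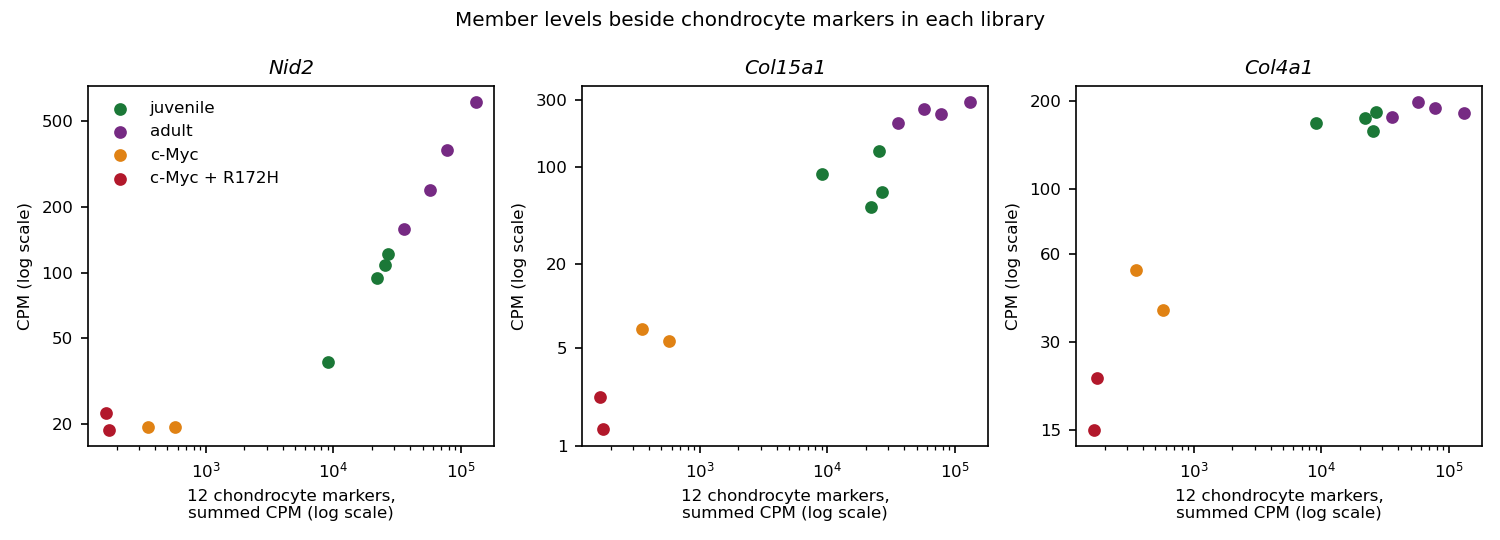
Expression (CPM, log axis) of *Nid2*, *Col15a1* and *Col4a1* against the summed expression of 12 chondrocyte markers (CPM, log axis), with 1 point for each of the 12 libraries. In the 8 control libraries *Nid2* climbs with the markers from 38.7 to 613 CPM, and *Col4a1* stays between 158 and 197 CPM. *Col15a1* separates the age groups and does not follow the markers within the juvenile group. Within the adult group, its highest and lowest libraries are those of the markers.

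Of 66 tested genes on 4 lists of proteins that act on or beside these members, 7 were called between the ages (10.6%, against 5.12% of all genes tested). Of 20 genes for collagen folding, modification and crosslinking, 0 were higher and 2 lower in juvenile cells, *Loxl2*, a lysyl oxidase that crosslinks type IV collagen (-0.83 on the log2 scale), and *Plod3*, which hydroxylates and glycosylates collagen lysines (-0.61). Of 21 tested partners, such as laminins and perlecan, 0 were higher and 1 lower, *Fbln2*, a fibulin that binds nidogen (-3.77). Of 14 tested receptors, 0 were higher and 3 lower: *Itgb4*, an integrin chain of hemidesmosomes (-3.43), *Sdc4*, a syndecan (-1.50), and *Ddr1*, a collagen receptor kinase (-0.93). Of 11 tested proteases and inhibitors, 1 was higher, *Bmp1*, a procollagen proteinase (0.58), and 0 were lower. The list medians were -0.23, -0.093, -0.27 and 0.013 in that order.

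In *c-Myc* osteoblasts both chains of the ubiquitous network, *Col4a5*, *Col15a1* and both nidogens were lower than in juvenile osteoblasts, and *Col18a1* was not called. 6 of the 7 tested members were called lower and 0 higher at an adjusted p below 0.05 with at least a log2 change of 1 in size, where edgeR's quasi-likelihood test called 34.4% of the 12588 tested genes, 18.4% higher and 16% lower. The median log2 fold change was -2.16 over the 7 members and 0.037 over all genes tested. The groups did not overlap for 6 of the 7 members, against 28.7% of all genes tested with *c-Myc* lower. Under scaling by library totals alone, where the all-gene median became 0.87, the calls split as 5234 higher and 700 lower in place of 2320 and 2010, and 5 members were still called lower.

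*Col4a1* was at 38.6 and 52.6 CPM and *Col4a2* at 21.9 and 29.2 CPM in the *c-Myc* libraries. Both lay far below the lowest juvenile values, 158 and 86.5 CPM. *Col4a1* fell 3.80-fold (log2 fold change -1.93, SE 0.17, adjusted p = 1.32e-06) and *Col4a2* fell 4.51-fold (-2.17, SE 0.21, adjusted p = 2.99e-06, edgeR's quasi-likelihood test).

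*Col15a1*, at 5.66 and 6.86 CPM, fell 13.5-fold, the widest change among the 7 tested members (log2 fold change -3.76, SE 0.36, adjusted p = 4.01e-06 in edgeR's quasi-likelihood test). *Col18a1*, at 6.71 and 6.46 CPM, lay inside the juvenile range of 5.29 to 11.04 CPM. Its log2 fold change was -0.24 (approximate 95% interval -0.91 to 0.43, adjusted p = 0.579 in edgeR's quasi-likelihood test), and with library totals it was 0.60. Per length, *Col15a1* was 6.55 to 18.7 times *Col18a1* in the juvenile libraries and 0.933 to 1.17 times in the *c-Myc* ones.

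*Nid1*, at 4.29 and 5.04 CPM, fell 4.48-fold (log2 fold change -2.16, SE 0.29, adjusted p = 5.24e-05 in edgeR's quasi-likelihood test). *Nid2*, at 19.4 and 19.3 CPM, fell 4.77-fold (-2.26, SE 0.40, adjusted p = 0.0011 in edgeR's quasi-likelihood test), while *Rtraf* on its opposite strand was at -0.19 (SE 0.18). *Col4a5*, at 1.55 and 1.47 CPM, fell 2.60-fold with an adjusted p of 0.0471 in edgeR's quasi-likelihood test. That call was lost with juvenile library 1 or 3, or any of the 4 induced libraries, left out, at adjusted p from 0.0627 to 0.204.

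All 12 chondrocyte markers were called lower in *c-Myc* osteoblasts as well, at a median of -5.68 on the log2 scale, and so were 10 of 12 osteoblast markers, with a median of -2.12. Of 4 tested endothelial markers 2 were called higher, *Egfl7* (5.24, at a mean of 6.68 CPM) and *Esam* (5.60, at 0.405 CPM), and 1 lower, *Erg* (-1.95). Of 9 tested mural cell markers 4 were lower and 1 higher. Their sum, most of it *Cspg4*, was 263 to 290 CPM against 428 to 520 CPM in juvenile libraries, while the pericyte marker *Rgs5* rose from a mean of 1.49 to 18.5 CPM (log2 fold change 3.50, adjusted p = 0.00035 in edgeR's quasi-likelihood test). Of 7 tested marrow stromal and adipocyte markers 2 were lower and 1 higher, and their sum was 157 to 241 CPM against 337 to 430 CPM. The part of these changes in the members' differences was not tested. *Nid2* lay at 18.8 to 22.4 CPM in the 4 induced libraries, where the chondrocyte markers summed to 166 to 571 CPM.

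Of 71 tested genes on the 4 lists, 43 were called in *c-Myc* osteoblasts, 40 lower and 3 higher (60.6%, against 34.4% of all genes tested). Most genes on the list for building collagen were lower. Of 20 folding, modification and crosslinking genes, 16 were called lower and 0 higher in *c-Myc* osteoblasts, and their median log2 change was -1.44. The widest decreases were those of *Colgalt2*, a collagen galactosyltransferase (-6.27), *P4ha3*, a prolyl hydroxylase chain (-3.87), and *Loxl2* (-2.51); *P4ha3* was near the limit of detection in the *c-Myc* libraries, at 0.301 CPM, and *Colgalt2* at 0.234 CPM. Of 23 tested partners, 9 were lower and 2 higher: *Smoc2*, a calcium-binding matrix protein (-3.73), *Sparc*, a collagen-binding protein (-2.68), and *Lama2*, a laminin chain of muscle (-2.58), fell the most, and *Lama5*, another laminin chain (1.30), and *Col7a1*, the anchoring fibril collagen (1.14), rose. Of 15 receptors, 6 were lower and 0 higher, led by *Itga6* (-2.92) and *Itgb4* (-2.77), both laminin-binding integrin chains, and *Sdc4* (-1.63). *Itgb4*, at 0.222 CPM, was also near the limit of detection in the *c-Myc* libraries, and *Lama2* was at 0.494 CPM. Of 13 tested proteases and inhibitors, 9 were lower, with the inhibitors *Timp2* (-2.31) and *Timp1* (-2.10) and the gelatinase *Mmp2* (-2.17) in front. 1 was higher, *Ctss*, a cathepsin with no count in the juvenile libraries and a mean of 0.631 CPM in the *c-Myc* ones. Of 5 tested blood cell markers, *Lyz2* was called higher (4.23) and *Ctsk* lower (-3.00), and the part of blood cells in *Ctss* was not tested.

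**Figure D3:**
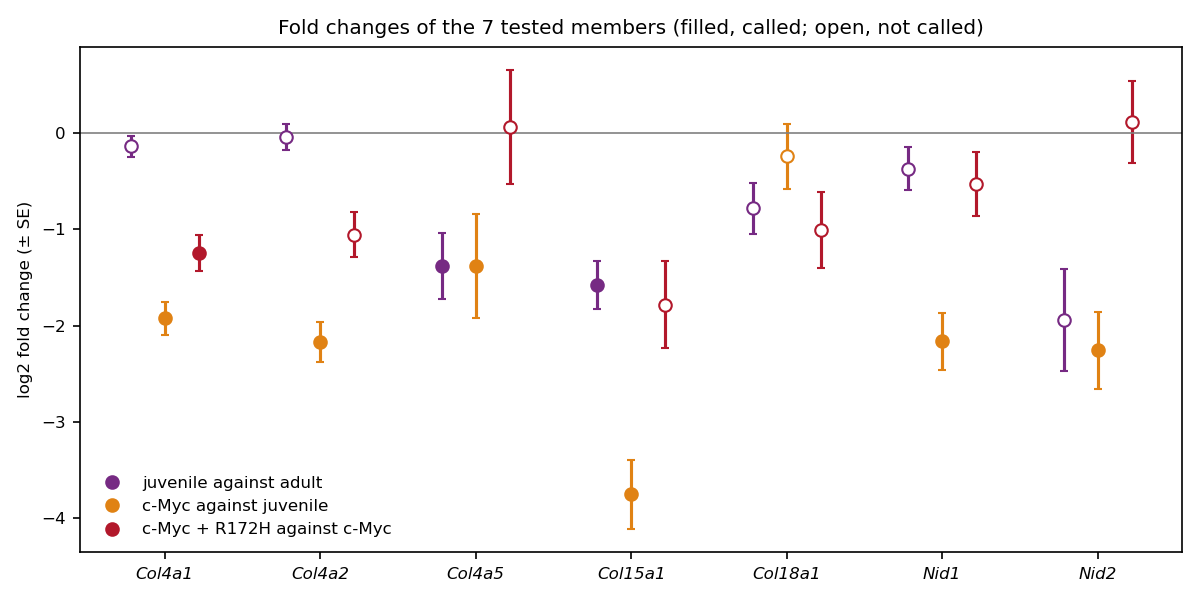
Log2 fold changes with SE of the 7 tested members in 3 comparisons. Filled points passed the call rule of their comparison and open points did not. *Col4a1* and *Col4a2* lie near 0 between ages and near -2 with *c-Myc*, and *Col18a1* has open points in all 3 comparisons.

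With mutant p53 beside *c-Myc*, *Col4a1* was lower still. 1 of the 7 tested members was called lower and 0 higher in *c-Myc* + *R172H* against *c-Myc* osteoblasts at an adjusted p below 0.05, where edgeR's quasi-likelihood test called 0.469% of the 12588 tested genes, 0.461% lower and 0.00794% higher. The median log2 fold change was -1.01 over the 7 members and -0.0028 over all genes tested. The groups did not overlap, with mutant p53 lower, for 5 of the 7 members, against 27.5% of all genes tested.

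*Col4a1* was at 22.6 and 15.0 CPM in the *c-Myc* + *R172H* libraries against 38.6 and 52.6 CPM with *c-Myc* alone. It fell 2.37-fold (log2 fold change -1.25, SE 0.19, adjusted p = 0.0120 in edgeR's quasi-likelihood test) and ranked 21st by p among the genes tested. The call was lost without juvenile library 2, *c-Myc* library 2 or *c-Myc* + *R172H* library 2, at adjusted p of 0.0516, 0.123 and 0.109, and adjusted p over all alternatives ran from 1.45e-12 to 0.232 with log2 fold changes from -1.59 to -1.02. *Col4a2* was at 14.1 and 9.92 CPM against 21.9 and 29.2 CPM, and its log2 fold change of -1.05 (SE 0.23) gave an adjusted p of 0.0883 in edgeR's quasi-likelihood test. It passed the threshold in 7 of the 17 alternatives, and the difference between the pair's fold changes was not tested.

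*Col15a1*, at 1.33 and 2.23 CPM, had a fitted log2 fold of -1.78 (SE 0.45, adjusted p = 0.174 in edgeR's quasi-likelihood test). It passed the threshold in 5 of the 17 alternatives, with an adjusted p of 0.00044 in DESeq2. *Col18a1* was at 4.07 and 2.33 CPM and *Nid1* at 3.20 and 3.13 CPM, below both *c-Myc* libraries, with adjusted p of 0.786 and 1 in edgeR's quasi-likelihood test. *Nid2*, at 18.8 and 22.4 CPM, and *Col4a5*, at 2.06 and 1.04 CPM, overlapped the *c-Myc* libraries, with log2 fold changes of 0.12 (approximate 95% interval -0.71 to 0.95) and 0.064 (-1.10 to 1.23). With 2 libraries a group, changes inside these intervals remain possible, and the intervals are not limits of detection. The interval of *Col15a1*, -2.67 to -0.90, lay below 0 without a call. Of 71 tested genes on the surrounding lists, 2 were called (2.82%, against 0.469% of all genes tested). *Loxl2* (-1.47, 1 of 20 folding genes) and *Sparc* (-0.87, 1 of 23 partners) were lower, and 0 of 15 receptors and 0 of 13 proteases were called either way.

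The chondrocyte and mural marker sums were also lower in both *c-Myc* + *R172H* libraries, and the stromal sums overlapped. The chondrocyte sum was 166 to 173 CPM against 354 to 571 CPM (median log2 change -1.40, 0 of 12 called), the mural sum 192 to 221 CPM against 263 to 290 CPM (1 of 9 tested called, *Abcc9*, -1.40), and the marrow stromal and adipocyte sum 139 to 159 CPM against 157 to 241 CPM (1 of 7 tested called, *Lepr*, -1.08). Of 12 osteoblast markers 1 was called lower, *Col1a1* (-1.05), with a median of -0.67, and *Sp7* was at -0.15. Their part in the lower *Col4a1* was not tested.

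Set against the juvenile group, whose libraries it shares with the *c-Myc* comparison, *c-Myc* + *R172H* had 6 of the 7 tested members lower and 0 higher. The same test called 37.5% of the 12588 tested genes, 17.9% lower and 19.6% higher, and the median log2 fold change was -2.69 over the 7 members and 0.076 over all genes. The groups did not overlap for any of the 7 members, against 30.1% of all genes tested. *Col15a1* fell 46.5-fold (log2 fold change -5.54, SE 0.42), *Col4a2* 9.36-fold (-3.23, SE 0.23), *Col4a1* 9.02-fold (-3.17, SE 0.18), *Nid1* 6.46-fold (-2.69, SE 0.31) and *Nid2* 4.39-fold (-2.14, SE 0.40). *Col18a1* fell 2.38-fold (-1.25, SE 0.36, adjusted p = 0.0106), a call lost without *c-Myc* + *R172H* library 2 (adjusted p = 0.136) and with library totals (log2 fold change -0.20, adjusted p = 0.644). *Col4a5* had an adjusted p of 0.0527 in edgeR's quasi-likelihood test and passed in 7 of the 17 alternatives.
Around them, 45 of 71 tested genes on the 4 lists were called, 42 lower and 3 higher (63.4%, against 37.5% of all genes tested). Of 20 folding genes, 16 were lower and 0 higher, led by *Colgalt2* (-7.26), *P4ha3* (-4.18) and *Loxl2* (-3.98). *Colgalt2*, at a mean of 0.118 CPM, and *P4ha3*, at 0.238 CPM, were near the limit of detection in the *c-Myc* + *R172H* libraries. Of 23 partners, 10 were lower, led by *Smoc2* (-4.86), *Sparc* (-3.55) and *Lamb1*, a laminin chain (-3.18), and *Col7a1* (1.72) and *Lama5* (1.20) were higher. Of 15 receptors, 6 were lower, led by *Itga6* (-3.94), *Itga1*, a collagen-binding integrin chain (-2.56), and *Itgb4*, at a mean of 0.380 CPM against 1.56 CPM. *Itga6* was at a mean of 0.376 CPM against 5.91 CPM. Of 13 proteases and inhibitors, 10 were lower, led by *Timp1* (-2.83), *Timp2* (-2.81) and *Mmp2* (-2.68). *Ctss* was higher at a mean of 0.355 CPM. Of 5 tested blood cell markers, *Lyz2* was called higher (2.95) and *Ctsk* lower (-2.92). Of 4 tested endothelial markers, *Egfl7* (5.10) and *Esam* (6.39) were called higher and *Erg* lower (-3.07).

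Within libraries, the ratio of the head-to-head pair spanned a narrow range. Per length, *Col4a1* was 1.14 to 1.62 times *Col4a2* in the 12 libraries: 1.37 ± 0.200 (SD, n = 4) in the juvenile, 1.43 ± 0.108 (n = 4) in the adult, 1.58 ± 0.0247 (n = 2) in the *c-Myc* and 1.38 ± 0.0525 (n = 2) in the *c-Myc* + *R172H* group. Between ages the ratio gave p = 0.571 in an exact two-sided permutation test, which can go no lower than 0.0286 here. The *c-Myc* ratios, 1.56 and 1.60, did not overlap the *c-Myc* + *R172H* ratios, 1.42 and 1.34, and this difference was not tested. *Nid2* over *Nid1* per length was 3.40 to 9.37 in juvenile and 9.17 to 22.8 in adult libraries, and *Col15a1* over *Col18a1* 6.55 to 18.7 and 17.7 to 24.4. Each gave p = 0.0571 in the exact permutation test, 0.0857 after adjustment over the 3 ratios.

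**Figure D4:**
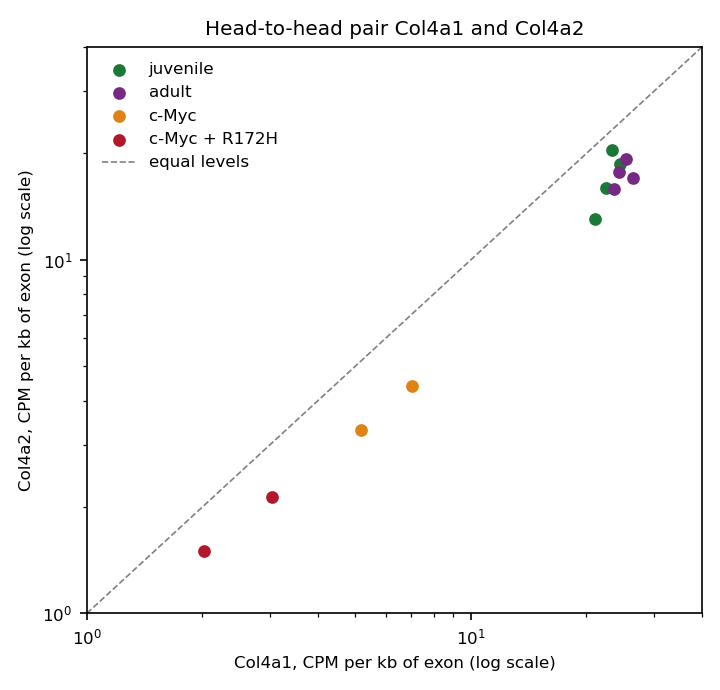
Expression of *Col4a1* and *Col4a2* in each library (CPM per kb of exon, log axes), with a dashed line where both would be equal. The 12 points lie below the line at a similar distance, with *Col4a1* 1.14 to 1.62 times *Col4a2*, from the control libraries at the upper right to the *c-Myc* + *R172H* libraries at the lower left.

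Over the 12 libraries, which share the group differences, *Col4a1* and *Col4a2* were each other's closest match among 13004 genes in log2 CPM (r = 0.994, a description with no test). *Col4a5* was closest to *Galnt18* (r = 0.973), and *Col4a6* came at rank 2349 for it (r = 0.670), with counts of *Col4a6* too low for a firm value. *Col4a6* in turn was closest to *Gm45397* (r = 0.955), and *Col4a5* came at rank 746. The genes closest to the others were *Thbs1* for *Col15a1* (r = 0.995), *Wwtr1* for *Nid1* (r = 0.992), *Xylt1* for *Nid2* (r = 0.993) and *Snx3* for *Col18a1* (r = 0.924).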

How the data were processed

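RNA was sequenced from sorted cells in single-end runs of a directional library kit. Per the labels and the paper's methods, the authors demultiplexed with bcl2fastq 2.20, trimmed with cutadapt 4.6, aligned to mm10 with STAR 2.7.11a and deposited raw HTSeq 2.0.5 counts of uniquely mapped reads, with no normalization. The strand setting of the counting is not given in the sources used here, so reads of genes that overlap on opposite strands may be mixed or dropped as ambiguous.

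Counts were analysed with edgeR 4.0.16 in R 4.3.3. Genes were filtered by the package default, libraries were scaled by TMM, and quasi-likelihood models were fitted robustly, with Benjamini-Hochberg adjustment over all tested genes at 0.05. Juvenile and adult libraries (8) formed 1 fit. The juvenile and induced libraries (8) formed another, and calls against the juvenile group also needed a log2 change of 1 or more in size. Printed CPM were normalized over all 12 libraries, CPM per kb used union exon lengths of GENCODE annotation of GRCm38, and folds came from the fits. SE was computed from the log2 fold change and the F statistic, and intervals are 1.96 SE on each side, both approximate. The members and gene lists were chosen with earlier results of these data known. Named genes were the members, the up to 3 called genes per list with the largest increase and decrease, marker checks and closest matches. *Rtraf*, *Rgs5*, *Cspg4*, *Abcc9*, *Lepr*, *Lyz2*, *Ctsk*, *Egfl7*, *Esam* and *Erg* were named after values were seen. Counts of replicates differed beyond sampling noise (chi-square per degree of freedom 5.45 to 136), and p-values measure the spread between these libraries. Floors of 3 counts cover counting error only. The procedure was tested on simulated counts. Alternatives were RLE normalization, library totals, 3 dominant genes removed, no filter, at least 10 counts in every library, a replicate block, DESeq2 1.42.0, other sets of libraries, no minimum fold, each library left out, and a chondrocyte covariate (log2 of the summed CPM of the 12 markers).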

Additional observations from a re-analysis of the deposited data

Results flagged for a closer look

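*Col4a6* stood out in juvenile library 2, at 0.722 CPM (7 counts), while the other 3 juvenile libraries had no count of this gene. Its distance from the others was past Dixon's 95% value, which about 1 in 20 groups passes by chance, and 20 groups of 4 libraries were looked at.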

How the results depend on the processing

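Of 476 recomputed fold changes of members, 425 kept their direction and their side of the threshold, 21 lost a call, 23 gained one and 7 changed sign. Between ages, 2 members were called lower, against 4 in DESeq2 (*Col4a6* and *Nid2* added), 3 with library totals (*Col18a1* added) or all 12 libraries in the fit (*Nid2* added), 0 with the chondrocyte covariate and 1 to 2 with a library left out. Without juvenile library 2, which held the juvenile counts of *Col4a6*, the 2 were *Col15a1* and *Col4a6*. Between *c-Myc* + *R172H* and *c-Myc*, 1 member was called lower, against 0 with library totals, 2 with at least 10 counts in every library or all 12 libraries in the fit, 3 without a filter, in DESeq2 or with the compared libraries alone, and 0 to 3 with a library left out, where a lone library was assumed to vary like the other groups. Without juvenile library 3 the 3 were *Col4a1*, *Col4a2* and *Col15a1*, and with the compared libraries alone *Col4a2*, *Col15a1* and *Col18a1*, where *Col4a1* had an adjusted p of 0.230 (0.232 with library totals). Sign changes were found in small, uncalled values: *Col4a2* between ages (0.094 with the covariate, -0.14 to 0.068 with a library left out), *Nid1* between ages (0.26 with the covariate), *Col18a1* with *c-Myc* (0.60 with library totals), and, for mutant p53 against *c-Myc* alone, *Col4a5* (-0.53 to 0.44) and *Nid2* (-0.050 to 0.22) with a library left out. The cause was not tested.

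Deviations of same-numbered libraries of different groups correlated at -0.052 to 0.067, and at 0.14 for *c-Myc* with *c-Myc* + *R172H*. With 2 libraries a group, the 0.14 is 1 contrast that returns for each number, and a shared origin of those libraries was not tested. The adult library names carry other numbers, so the adult libraries share only a number with the others. A replicate block moved the mutant p53 calls of all genes from 1 higher and 58 lower to 30 and 296, with 2 members called lower (*Col4a2* and *Col15a1*) and *Col4a1* at an adjusted p of 0.155.

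Calls over all genes between ages, 214 higher and 367 lower, were 53 and 793 with library totals, 399 and 578 without a filter, and 461 and 633 with 12 libraries in the fit; 619 were lower in DESeq2, and 85 to 344 were higher with a library left out, fewest without juvenile library 2. For mutant p53 against *c-Myc* alone, 14 and 208 were called without a filter, 8 and 200 in DESeq2, 189 and 440 with the compared libraries alone, 0 and 22 with 12 libraries, 11 lower with library totals and as few as 7 lower without *c-Myc* library 2. Against the juvenile group, *c-Myc* + *R172H* gave 2466 higher and 2258 lower, and 6264 and 868 with library totals. With no minimum fold, *c-Myc* gave 3577 and 3149, and 3832 were higher for *c-Myc* + *R172H*. Under library totals the all-gene median was -0.24 between ages, 0.87 with *c-Myc*, 0.21 for mutant p53 and 1.12 for both against juvenile.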
